A study of Mus musculus with 14 samples.

Results

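The genes of heme breakdown and heme synthesis were examined in RPE, the retinal pigment epithelium, a sheet of pigmented cells that supports the photoreceptors. The group holds 8 mouse genes, picked by name for their role, of 34452 mouse genes in the table: Hmox1, Hmox2, Blvra, Blvrb and Slc48a1 on the side of heme breakdown and heme recycling, and Alas1, Alad and Fech on the side of synthesis. Each of 7 rd1 mice gave 1 library per eye at postnatal day 20 (P20). All of them are FVB/N mice that carry the rd1 allele, a complete loss of Pde6b function that kills the rods early, and all 14 eyes had received AAV-Best1-GFP, an adeno-associated virus that drives green fluorescent protein from the Best1 promoter, which is active in the RPE. The Nrf2 eye had in addition received AAV-Best1-Nrf2, which drives the human gene NFE2L2 from the same promoter. The control eye received AAV-Best1-GFP only, with no other vector in place of AAV-Best1-Nrf2. The effects of the transgene and of the added vector, with its added dose, therefore cannot be told apart. The GFP and Nrf2 vectors were also packaged in different capsids. The RNA was taken from the eyecup after removal of the retina and amplified with a low-input kit that does not mark strand. In such bulk RNA, fewer cells of a type and less RNA per cell cannot be told apart.

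Heme is built from glycine and succinyl-CoA in a chain of enzymes that begins and ends in the mitochondrion. It is broken down by heme oxygenases to biliverdin, iron and carbon monoxide, and biliverdin is in turn reduced to the antioxidant bilirubin. Nrf2 is a transcription factor that binds antioxidant response elements together with a small Maf partner, and Hmox1 is among its best known targets. The heme-binding repressor Bach1 occupies the same elements.

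Libraries are named by group and mouse, and eyes of the same replicate number were taken as the same mouse. They held from 16548349 to 50543008 counts, and values below are counts scaled to a library total of 1000000 (CPM) unless another scale is named. The transcript of the vector, human NFE2L2, stood between 1163 and 8711 CPM in Nrf2 eyes and between 1.12 and 1163 CPM in control eyes. The library labelled control 3 thus carried as much of it as the library labelled Nrf2 4. Of all 91 pairs of libraries these had the smallest median difference, 0.09 on the log2 scale over 12025 genes, against 0.15 for the next pair, and over the 8 heme genes they were at most 0.07 apart. Both were kept under their labels, and the main values are also given without mice 3 and 4. RPE markers summed to between 23899 and 33759 CPM in Nrf2 eyes and between 19609.9 and 40686 CPM in control eyes. Their member with the highest CPM was Ttr, with a log2 fold change of 1.58 (adjusted p 0.104, SE 0.45). Of the marker fold changes 6 were above 0 and 7 below it (median -0.15). Similar sums therefore do not show that the single markers were unchanged. Of the 13, Rpe65, the visual cycle isomerase, passed the threshold (log2 fold change -2.17, adjusted p 0.0199, SE 0.37), and Best1 itself was low, between 0.30 and 3.84 CPM.

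Among the 8 heme genes, Hmox1 and Blvrb differed between the eyes in the paired edgeR test, and both were higher with Nrf2. Across all 16289 genes tested 3.43% passed, 2.94% in that direction. The other 6 genes did not pass. DESeq2 passed 4 of the 8 (11.9% of all genes), voom with sample quality weights 5 (15.9%) and edgeR without mouse 4 again 4 (12.6%), and Hmox1 and Blvrb were among them each time. Without mice 3 and 4 edgeR passed 2 of the 8, beside 745 of all 16563 genes tested. At an unadjusted p under 0.05 edgeR on all mice had 5 of the 8, and 18.1% of all genes. All fold changes are Nrf2 over control on the log2 scale, standard errors (SE) come from the same fit, p-values were adjusted over all genes tested, and adjusted p under 0.05 was the threshold.

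**Figure D1:**
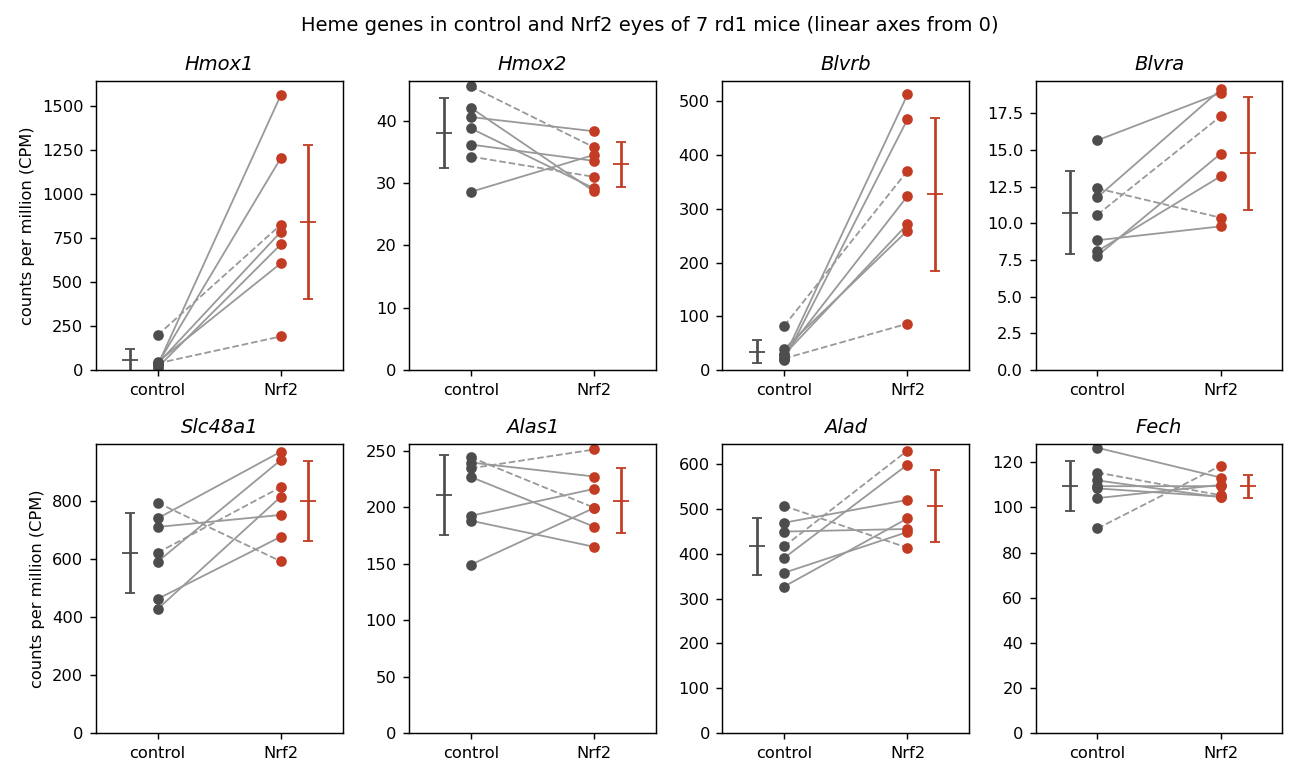
Level of the 8 heme genes in CPM (y axis, linear from 0, scaled to each gene) in control (grey) and Nrf2 (red) eyes. Each point is an eye, lines join the eyes of a mouse, dashed lines mark mice 3 and 4, and bars give the mean and SD (n = 7; the lower bar of Hmox1 in control eyes runs below 0 and is clipped). Hmox1 averaged 57.0 CPM in control and 844 CPM in Nrf2 eyes, whereas Fech averaged 109 CPM in both.

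Hmox1 encodes the inducible heme oxygenase, the enzyme that opens the heme ring (ENSMUSG00000005413, chr8:75093621-75100589, GRCm38). In Nrf2 eyes its lowest, median and highest values were 192, 787 and 1565 CPM, and in control eyes 15.4, 36.7 and 199 CPM. Of the Nrf2 eyes 6 lay above every control eye. Nrf2 4, at 192 CPM, lay just below control 3, at 199 CPM, and above the other 6 controls. The means were 844 ± 438 and 57.0 ± 63.6 CPM (SD, n = 7). The paired fit, which works within mice, gave a log2 fold change of 4.30 (adjusted p 0.0101, SE 0.56) or 19.7-fold (95% interval 8.11 to 47.9). Within mice the difference ran from 2.05 in mouse 3 to 5.87 in mouse 7. Without mice 3 and 4 the log2 fold change was 5.04 (adjusted p 0.00294).

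The SD of Hmox1 in control eyes exceeded its mean. Leaving out control 3 lowered the control mean to 33.2 CPM, and leaving out Nrf2 4 raised the Nrf2 mean to 952 CPM. Hmox1 had a coefficient of variation of 112% in control eyes, where the median over 12025 genes of at least 5 CPM was 19.97%.

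Hmox2 encodes the constitutive heme oxygenase (ENSMUSG00000004070, chr16:4726361-4766742). Nrf2 eyes spanned 28.6 to 38.3 CPM with a median of 33.5, and control eyes 28.6 to 45.5 CPM with a median of 38.7, so that the groups overlapped, with 4 of the control eyes above every Nrf2 eye. Its log2 fold change was -0.07 (95% interval -0.29 to 0.15, SE 0.10, adjusted p 0.751). The exons of Hmox2 overlap those of Cdip1 on the other strand, and 767 bases of its transcripts are identical to Cdip1, so reads of this pair may have been divided. Cdip1 averaged 131.6 CPM over all libraries and Hmox2 35.5 CPM. A stretch of 257 bases is also 99.61% identical to Ppp4r2, at 33.45 CPM. The part of such reads in the Hmox2 values was not tested.

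The responses of the isozymes were compared within mice. The log2 difference of Hmox1 exceeded that of Hmox2 in 7 of 7 mice, by 4.34 ± 1.46 (SD, n = 7) on average and by at least 2.20 (exact two-sided sign-flip permutation test, p = 0.0156, adjusted over 3 pairs 0.0234). Scaled by transcript length, Hmox1 made up 37.3% to 57.2% of the sum of both oxygenases in the control eyes other than control 3, where it made up 86.5%. In Nrf2 eyes it made up 95.8% to 97.9%, and 85.6% in Nrf2 4. The mean share rose from 53.2 ± 16.1% to 95.1 ± 4.30% (SD, n = 7). Reads divided between Hmox2 and Cdip1 would move these shares.

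Blvrb encodes biliverdin reductase B, also known as a flavin reductase (ENSMUSG00000040466, chr7:27447978-27466144). It stood at 86.6, 324 and 513 CPM (lowest, median and highest) in Nrf2 eyes and at 18.2, 29.0 and 82.3 CPM in control eyes. The groups did not overlap, although the gap between Nrf2 4 and control 3 was narrow. Every Nrf2 eye lay above every control eye in 1.04% of all genes tested. The means were 327 ± 142 and 34.8 ± 22.05 CPM (SD, n = 7). The paired fit gave a log2 fold change of 3.36 (adjusted p 0.00936, SE 0.38), or 10.2-fold (95% interval 5.61 to 18.7). It was 3.80 without mice 3 and 4 (adjusted p 0.00431).

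Blvra encodes biliverdin reductase A, the main reductase of adult tissues (ENSMUSG00000001999, chr2:127070665-127097084). It was the lowest of the 8 genes, also per length, at 9.79, 14.7 and 19.1 CPM in Nrf2 eyes and 7.79, 10.6 and 15.6 CPM in control eyes (lowest, median and highest). The ranges overlapped, the Nrf2 eye was the higher one in 6 of 7 mice, and mouse 4 was the exception. Its log2 fold change of 0.59 (SE 0.18, 95% interval 0.19 to 0.99) did not pass (adjusted p 0.123). The single-gene exact sign-flip permutation test gave an unadjusted p of 0.0469. Without mouse 4 the edgeR value was 0.70 (adjusted p 0.0285), and DESeq2 on all mice gave 0.61 (adjusted p 0.0164). Without mice 3 and 4 the edgeR value was 0.66 and did not pass (adjusted p 0.120).

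The reductases also differed from each other. Blvrb responded more than Blvra in 7 of 7 mice, by 2.79 ± 1.05 (SD, n = 7; range 1.46 to 4.41; exact two-sided sign-flip permutation test, adjusted over 3 pairs p = 0.0234). Blvrb made up 75.2 ± 11.5% of the length-scaled sum of both reductases in control eyes and 95.5 ± 2.33% in Nrf2 eyes (SD, n = 7). These are shares of transcript, and the reduction of biliverdin was not measured. A share close to its upper limit has little room to vary, so the spreads of the shares are not compared between groups.

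**Figure D2:**
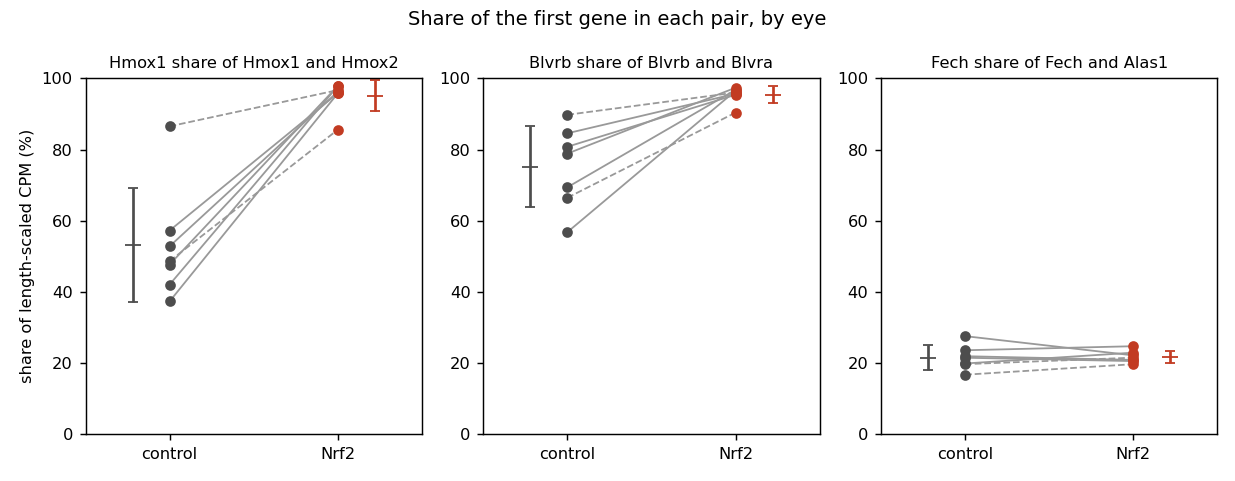
Share (%) of the first gene in the length-scaled CPM of 3 pairs of heme genes, in control (grey) and Nrf2 (red) eyes joined by mouse, with mean and SD beside them (n = 7) and mice 3 and 4 dashed. The Hmox1 share rose from 53.2% to 95.1% and the Blvrb share from 75.2% to 95.5%, while the Fech share was 21.5% and 21.7%.

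The sequences before the annotated starts of the reductase genes are shown because one of these genes rose far more than the other. They are the 250 bases upstream, as given by RefSeq for GRCm38.p6. Capitals mark the letters TGACNNNGC, the core of the antioxidant response element, searched on both strands. These letters were present in 10.2% of all 32851 upstream windows of this length. Blvrb has 2 annotated starts, and neither window contained them. The first, chr7:27447728-27447977 on the plus strand, and the Blvra window, chr2:127070407-127070656 on the plus strand with a match on the reverse strand that begins at -49 from the start, read as follows.
Blvrb: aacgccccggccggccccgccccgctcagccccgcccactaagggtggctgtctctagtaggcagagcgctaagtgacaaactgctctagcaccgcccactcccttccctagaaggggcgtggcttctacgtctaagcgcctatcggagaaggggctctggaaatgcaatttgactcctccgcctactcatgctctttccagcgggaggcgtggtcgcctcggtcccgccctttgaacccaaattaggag
Blvra: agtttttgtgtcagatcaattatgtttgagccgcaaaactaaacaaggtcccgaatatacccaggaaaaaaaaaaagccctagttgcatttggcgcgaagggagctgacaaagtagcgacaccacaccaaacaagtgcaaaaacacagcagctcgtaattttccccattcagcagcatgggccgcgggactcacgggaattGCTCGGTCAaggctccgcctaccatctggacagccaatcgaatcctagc
The windows of Hmox2, Alas1 and Alad held no match either. Hmox1, Fech and Slc48a1 had no window in the sequences used, so they were not searched. A match is a string of letters and not a measured binding site, and its absence describes only this window.

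Slc48a1 encodes the heme importer that moves heme out of endosomes and lysosomes (ENSMUSG00000081534, chr15:97778520-97792692). Nrf2 eyes ranged from 592 to 971 CPM with a median of 815, and control eyes from 427 to 794 CPM with a median of 622. Here 4 Nrf2 eyes lay above every control, and mouse 4 again moved the other way. The log2 fold change was 0.51 (95% interval 0.10 to 0.92, SE 0.18, adjusted p 0.180). It became 0.64 without mouse 4 (adjusted p 0.0285), and DESeq2 gave 0.53 (adjusted p 0.0465). Without mice 3 and 4 the edgeR value for Slc48a1 was 0.63 and did not pass (adjusted p 0.118). Its exons overlap those of Hdac7 on the other strand.

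Alas1 encodes the first and rate-limiting enzyme of heme synthesis outside the erythroid lineage (ENSMUSG00000032786, chr9:106233455-106248654). Values of 165, 199.7 and 251 CPM in Nrf2 eyes (lowest, median and highest) stood against 149, 227 and 244 CPM in control eyes. The ranges overlapped, with Nrf2 4 above every control eye and control 6 below every Nrf2 eye. The log2 fold change was 0.10 (95% interval -0.14 to 0.34, SE 0.11, adjusted p 0.634). An antisense transcript, 4930500F10Rik, shares exon sequence with it.

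Alad encodes the enzyme that joins a pair of aminolevulinate molecules, the next step of the pathway (ENSMUSG00000028393, chr4:62509169-62519918). It ranged from 414 to 631 CPM in Nrf2 eyes and from 327 to 507 CPM in control eyes, with medians of 479 and 417. The upper 3 Nrf2 eyes exceeded every control. Its log2 fold change of 0.41 (SE 0.16, 95% interval 0.04 to 0.78) did not pass (adjusted p 0.231), and voom with sample quality weights gave 0.58 (adjusted p 0.0192).

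Fech encodes ferrochelatase, which inserts iron into protoporphyrin (ENSMUSG00000024588, chr18:64452914-64490251). It was the steadiest of the 8, at 104 to 119 CPM in Nrf2 eyes and 90.7 to 126 CPM in control eyes, with a median of 109 in both. The coefficients of variation were 4.73% and 9.96%. The log2 fold change was 0.13 (95% interval -0.10 to 0.37, SE 0.10, adjusted p 0.525). Stretches of at least 200 bases at 95% identity or more to Fech occur in 11 other genes, among them pseudogenes, so part of its counts may have been divided.

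The last and the first enzyme of synthesis were compared in the same way as the oxygenases and the reductases. Fech minus Alas1 averaged 0.03 ± 0.25 (SD, n = 7) and was positive in 4 of 7 mice (exact two-sided sign-flip permutation test, p = 0.734).

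Directions of the small differences depended on scaling. With library totals the median over all genes of the mean log2 difference was -0.16, and with the TMM factors used by edgeR it was -0.03. The Nrf2 eye was higher in 1 of 7 mice for Hmox2 and in 3 of 7 for Fech and Alas1 on library totals, but in 3, 5 and 5 of 7 with TMM, so no direction is given for these genes. Alad was higher in 6 of 7 mice on library totals and in 5 of 7 with TMM. Hmox1, Blvrb, Blvra and Slc48a1 were higher in the same number of mice on either scale (7, 7, 6 and 6).

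**Figure D3:**
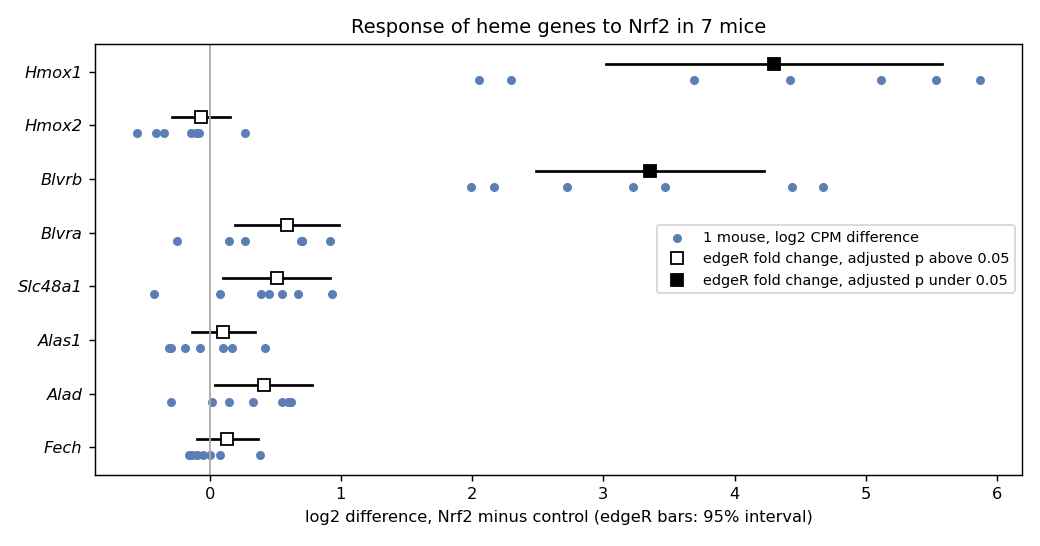
Response of each heme gene on the log2 scale (x axis, Nrf2 minus control). Blue points are the 7 mice on library totals, squares are edgeR fold changes with bars for the 95% interval, and filled squares passed the threshold. Hmox1 at 4.30 and Blvrb at 3.36 stand apart from the other genes, which lie between -0.07 and 0.59.

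Levels of different genes were compared per kilobase of transcript. In control eyes Alad stood highest at 334.5 ± 51.01 CPM per kb (SD, n = 7), followed by Slc48a1 at 245 ± 54.8 and, far below, Alas1 at 62.0 ± 10.4. Then came Hmox1 at 36.3 ± 40.5, Blvrb at 33.8 ± 21.4, Hmox2 at 21.95 ± 3.22, Fech at 16.7 ± 1.66 and Blvra at 9.25 ± 2.41 CPM per kb. Hmox1 exceeded Blvrb in 3 of 7 control eyes and Blvrb exceeded Hmox2 in 4 of 7, so these neighbours were not separated beyond their spread. In Nrf2 eyes Hmox1 came first at 538 ± 279 CPM per kb, ahead of Alad at 407 ± 65.2, Blvrb at 318 ± 138 and Slc48a1 at 315 ± 54.0. The ranges of these 4 genes overlapped, and Blvrb exceeded Slc48a1 in 4 of 7 Nrf2 eyes. Alas1 at 60.6 ± 8.42, Hmox2 at 19.1 ± 2.06, Fech at 16.6 ± 0.787 and Blvra at 12.7 ± 3.31 CPM per kb kept their mutual order.

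The vector transcript varied between eyes of the same group, so the heme genes were also set against it within each group. This relation was chosen after the library values were seen. In the 7 Nrf2 eyes log2 Hmox1 rose with log2 NFE2L2 (Pearson's r = 0.978, exact permutation p = 0.000397, adjusted over 16 relations 0.00317; Spearman's rho = 0.964, exact permutation p = 0.00278, adjusted 0.0222). Blvrb did so as closely (r = 0.991, exact permutation p = 0.000397, adjusted 0.00317; rho = 0.964, p = 0.00278, adjusted 0.0222). A rho of this size or more was found in 0.832% of 12025 genes. Slc48a1, which did not pass the comparison of the eyes, had r = 0.898 (exact permutation p = 0.000992, adjusted 0.00529) and rho = 0.929 (exact permutation p = 0.00675, adjusted 0.0360), a rho reached by 1.90% of genes.

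The relations were computed again over 6 eyes of each group, without Nrf2 4 and control 3. In Nrf2 eyes r was then 0.945 for Hmox1, 0.976 for Blvrb and 0.954 for Slc48a1 (adjusted exact permutation p = 0.0444 for each). Spearman's rho was 0.943, 0.943 and 0.886, and none passed after adjustment (exact permutation p = 0.133, 0.133 and 0.178). Without the pair of eyes farthest from the median of NFE2L2, Nrf2 1 and Nrf2 4, r was 0.950, 0.975 and 0.947 over 5 eyes. The other genes gave r = 0.691 for Blvra and Alad, -0.255 for Hmox2, -0.668 for Alas1 and -0.827 for Fech, none with an adjusted p under 0.05, and the last of these was -0.485 without Nrf2 4. Library total had r = 0.411 and rho = 0.536 with NFE2L2 in Nrf2 eyes, and its part in the relations was not tested.

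In the 7 control eyes Hmox1 had r = 0.834 (exact permutation p = 0.00675, adjusted 0.0270) and rho = 0.893 (exact permutation p = 0.0123, adjusted 0.0492). This call was lost over 6 eyes without mouse 3 (r = 0.743, adjusted exact permutation p = 0.222), mouse 5 (r = 0.857, p = 0.0833) or mouse 6 (r = 0.768, p = 0.153). Over the 5 eyes left without control 1 and control 6, the farthest from the median of NFE2L2, r was 0.916. The second highest control eye for NFE2L2, control 5 at 175 CPM, was also second for Hmox1 at 47.0 CPM and for Blvrb at 39.4 CPM. Control 4, next at 75.5 CPM of NFE2L2, held 39.0 CPM of Hmox1 but only 21.7 CPM of Blvrb. That was less Blvrb than in control 6 (29.0 CPM), which held 1.18 CPM of NFE2L2. Blvrb had r = 0.764 (adjusted exact permutation p = 0.0884), and r = 0.537 without control 3 (adjusted exact permutation p = 0.519). Slc48a1 had r = 0.241.

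**Figure D4:**
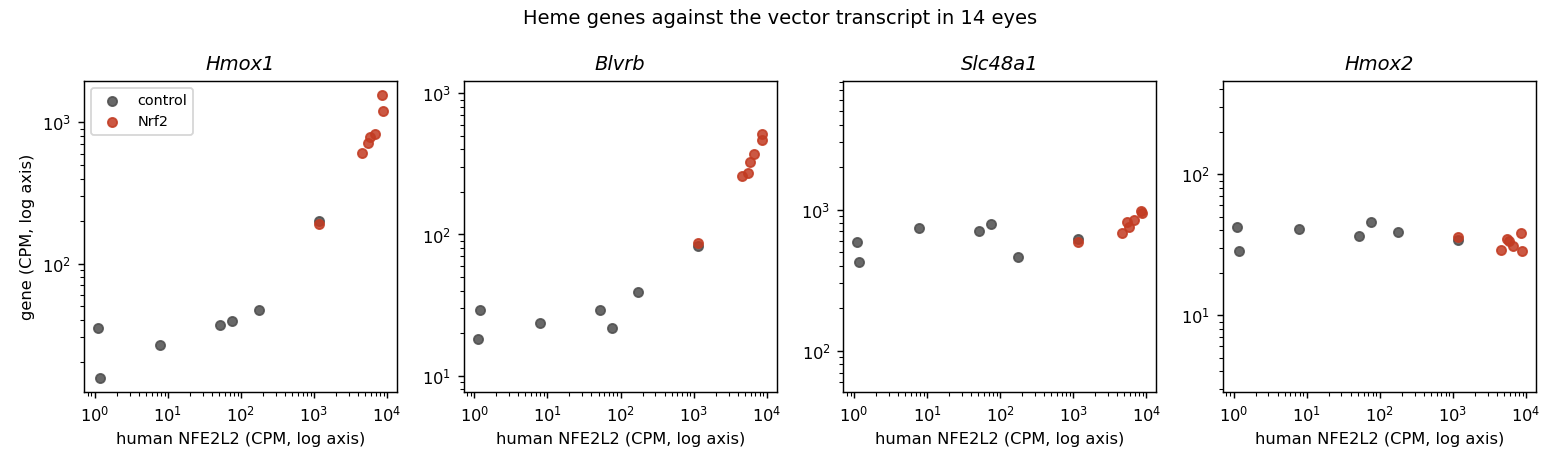
Hmox1, Blvrb, Slc48a1 and Hmox2 (y axes, CPM, log scale, the same number of decades in each panel) against the vector transcript human NFE2L2 (x axis, CPM, log scale) in control (grey) and Nrf2 (red) eyes. Control 3 and Nrf2 4 coincide at 1163 CPM of NFE2L2, and beyond that level Hmox1 and Blvrb climb with NFE2L2 while Hmox2 stays between 28.6 and 38.3 CPM.

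The genes whose 7 paired differences lay closest to those of each rising heme gene were found among 12025 genes by the root mean square of the differences (RMS, log2). For Hmox1 they were Gclc (RMS 0.28), Aox1 (0.41) and Srxn1 (0.48), and Blvrb came 20th (1.17). For Blvrb they were Cbr3 (0.21), Tmem158 (0.35) and Panx1 (0.35).

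The rest of the heme pathway was taken from 4 lists with 41 tested genes. Of these 4 passed, all higher with Nrf2: 3 of 13 in heme and bilirubin transport and binding, 1 of 7 among heme-responsive regulators, 0 of 6 other enzymes of synthesis and 0 of 15 genes of mitochondrial import and cofactors, beside 3.43% of all genes tested and 2.94% in that direction. The median log2 fold changes of these lists were 0.17, 0.02, -0.03 and 0.19, beside -0.04 over all genes tested. At an unadjusted p under 0.05 there were 3 of the 6 enzymes and 3 of the 15 mitochondrial genes (18.1% of all genes). DESeq2 passed 2 of each list (11.9% of all genes) and voom 3 and 5 (15.9%). The 3 enzymes at an unadjusted p under 0.05 went in both directions: Alas2 (-0.77), Ppox (-0.47) and Urod (0.24). Alas2 is also counted among the erythroid markers below.

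Among transporters and binders, Pgrmc1, a heme-binding membrane protein known as a partner of ferrochelatase, was at 567.5 to 2134 CPM in Nrf2 eyes and 281 to 548 CPM in control eyes. Every Nrf2 eye lay above every control eye, as in 1.04% of all genes tested, although Nrf2 4 and control 3 were close. It rose by 1.83 (log2; adjusted p 0.0104, SE 0.24) and passed in 15 of 15 alternative settings. Flvcr1, an exporter of heme from the cell, also showed no overlap, at 23.2 to 48.2 CPM against 14.4 to 17.2 CPM. Its log2 fold change was 1.10 (adjusted p 0.0135, SE 0.17), and the adjusted p was 0.0511 without mouse 1 and 0.0605 without mouse 7.

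Abcc3, an exporter of bilirubin conjugates, was scarce. Nrf2 eyes held 2.70 to 19.8 CPM and control eyes 0.50 to 2.93 CPM, and again only Nrf2 4 and control 3 overlapped. The log2 fold change was 2.88 (adjusted p 0.0401, SE 0.60). It was lost on leaving out any mouse but mouse 4, with adjusted p from 0.0578 (mouse 3) to 0.138 (mouse 1). Bach1, the heme-binding repressor of Hmox1, was at 12.9 to 22.7 CPM in Nrf2 eyes against 8.34 to 12.4 CPM in control eyes. The ranges did not overlap, but the gap was narrow. It rose by 0.78 (log2; adjusted p 0.0221, SE 0.14), with adjusted p of 0.0790 without mouse 1, 0.0603 without mouse 3, 0.0791 without mouse 5, 0.0947 without mouse 7 and 0.0501 without mice 3 and 4. Thus Bach1 passed in 10 of 15 alternative settings, Abcc3 in 9 and Flvcr1 in 13.

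In the lists where no gene passed, the members with the highest CPM were Urod, an enzyme of the middle of heme synthesis (log2 fold change 0.24, adjusted p 0.170, SE 0.08), and Slc25a39, a mitochondrial carrier (0.50, adjusted p 0.0894, SE 0.13, higher in 7 of 7 mice). Of all genes tested 3.28% were higher in 7 of 7 mice. Ppox, the enzyme that makes protoporphyrin for ferrochelatase, was singled out after its values were seen. Nrf2 eyes held 16.3 to 31.2 CPM of Ppox and control eyes 24.4 to 40.4 CPM, so that the ranges overlapped, but the Nrf2 eye was the lower one in 7 of 7 mice on library totals, as in 6.05% of all genes. Its log2 fold change of -0.47 (adjusted p 0.143, SE 0.15) did not pass. It passed with DESeq2 (-0.46, adjusted p 0.0366), with voom (-0.41, adjusted p 0.0292) and in edgeR without mouse 4 (-0.58, adjusted p 0.0248).

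**Figure D5:**
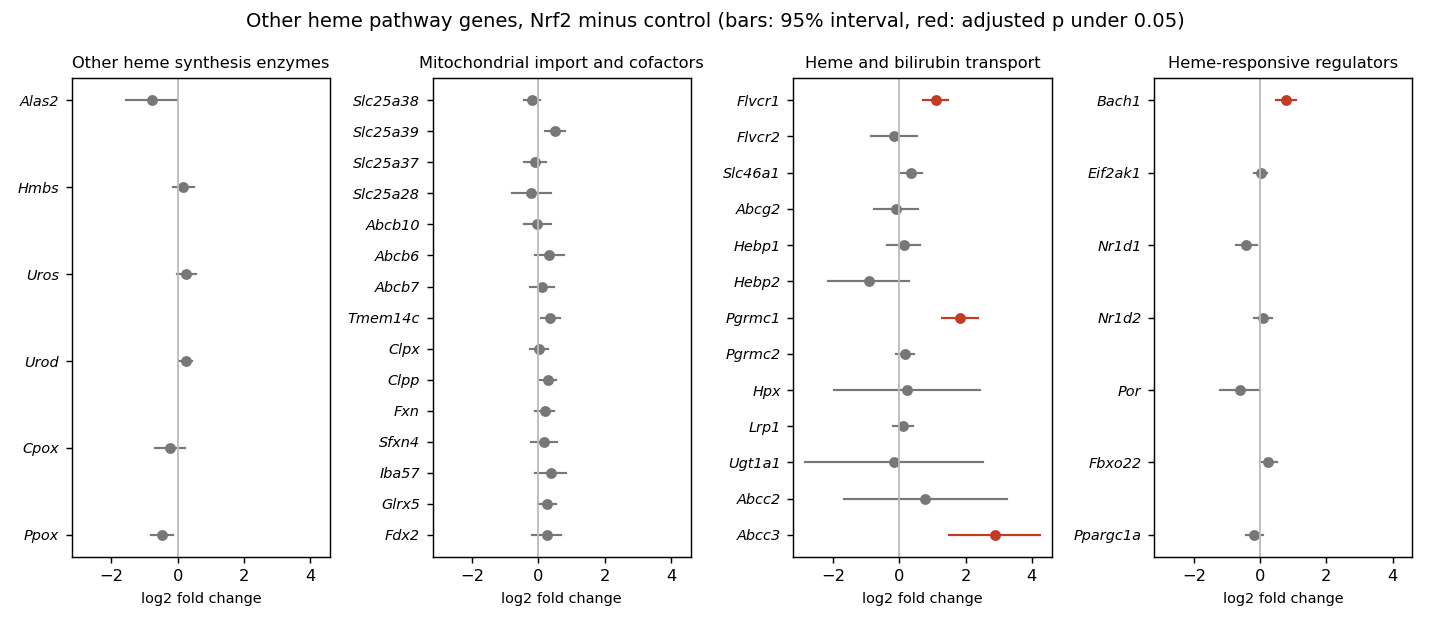
Log2 fold changes (x axis, Nrf2 over control, edgeR) of 41 other heme pathway genes in 4 lists, with bars for the 95% interval and red for genes past the threshold. Flvcr1, Pgrmc1, Abcc3 and Bach1 are red, at 1.10, 1.83, 2.88 and 0.78, and no gene is red among the 6 enzymes of synthesis, at a median of -0.03, or the 15 mitochondrial genes, at a median of 0.19 with 11 of 15 above 0.

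The windows before the starts of the rising pathway genes Flvcr1 and Pgrmc1 are given for comparison with those of the reductases, with the same letters in capitals. They are chr1:191026191-191026440 on the minus strand, with the match beginning at -151, and chrX:36597943-36598192 on the plus strand, with the match beginning at -192.
Flvcr1: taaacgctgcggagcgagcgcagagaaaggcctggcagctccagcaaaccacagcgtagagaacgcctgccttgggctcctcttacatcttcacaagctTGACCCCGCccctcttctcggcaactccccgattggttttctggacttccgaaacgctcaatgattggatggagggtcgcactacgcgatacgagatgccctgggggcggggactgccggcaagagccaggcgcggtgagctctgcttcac
Pgrmc1: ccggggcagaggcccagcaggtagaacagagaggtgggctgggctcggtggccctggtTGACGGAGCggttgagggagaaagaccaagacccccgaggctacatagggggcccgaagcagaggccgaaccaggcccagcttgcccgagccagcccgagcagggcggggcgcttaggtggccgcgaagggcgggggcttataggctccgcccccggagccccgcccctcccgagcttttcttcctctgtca
The window of Bach1, which also rose, held no match, and Abcc3 had no window in the sequences used.

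Other cell types of the eyecup express heme genes, so their markers were summed beside these results. Erythroid markers, led by Hba-a1, summed to 350.1 to 1384 CPM in Nrf2 eyes and 571 to 3761 CPM in control eyes, and 0 of 8 tested passed, with 7 of the 8 fold changes below 0 (median -0.75). Macrophage and microglia markers, led by Csf1r, summed to 165 to 656 CPM in Nrf2 and 261 to 486 CPM in control eyes, and 0 of 11 passed (median 1.32, with 9 of the 11 fold changes above 0 and that of Csf1r below it). With DESeq2 0 erythroid and 3 macrophage markers passed, with voom 0 and 0, and at an unadjusted edgeR p under 0.05 there were 1 and 2. The sum follows its most abundant members rather than the list, since the fold changes below 0 were those of Csf1r and Itgam (-0.76 and -0.80), whereas the complement genes C1qa and C1qb were at 1.51 and 1.57 (adjusted p 0.304 and 0.281), the last 3 genes singled out after their values were seen. Photoreceptor markers, led by Sag, summed to 17.3 to 130.3 CPM against 46.0 to 1004 CPM, and 2 of 9 passed, both lower as were 0.491% of all genes (Opn1sw at -5.12, adjusted p 0.0470, and Gnat2 at -1.69, adjusted p 0.0294). All 9 photoreceptor fold changes were below 0, with a median of -3.36, and 8 of 9 had an unadjusted edgeR p under 0.05, while 8 passed with DESeq2 and 8 with voom. Müller glia markers, led by Apoe, summed to 3475 to 5839.7 against 3407 to 8055 CPM. Endothelial markers, led by Vwf, summed to 71.2 to 187 against 53.1 to 243 CPM. In these lists 0 of 6 and 0 of 8 passed (1 and 0 at an unadjusted p under 0.05, 1 and 0 with DESeq2, 3 and 0 with voom). Fold changes below 0 were 5 of 6 for Müller glia (median -0.68) and 5 of 8 for endothelium (median -0.15). Apoe, with means of 4067 CPM in Nrf2 and 5578 CPM in control eyes, made up most of the Müller glia sum. That sum therefore follows Apoe rather than the list. The part of other cells in the heme results was not tested.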

How the data were processed

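RNA-seq of RPE from 7 rd1 mice was analysed, 1 Nrf2 and 1 control eye each. The methods of the study state fewer paired replicates for this comparison than the table holds, and which mouse they leave out is not given in the sources used here, so all 7 were used. The deposited table holds counts per gene, whole numbers not normalized between libraries. Per the methods, the authors aligned reads with STAR to mm10 with Ensembl release 91, counted them with featureCounts, and also quantified transcripts with Salmon (version 0.9.1 per the labels), which divides reads between near-identical copies. Which of these made the table is not given in the sources used here. The labels name 2 sequencing runs without assigning libraries to them, so runs could not be compared.

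Of 34452 mouse gene rows, 34401 matched GENCODE M21 (GRCm38). The human NFE2L2 row stayed out of the tests and the adjustment. Genes kept by filterByExpr (minimum count 10) were scaled by TMM and fitted in edgeR 4.0.16 (R 4.3.3) with terms for mouse and treatment, and its quasi-likelihood F-test gave p-values that were adjusted over 16289 genes (Benjamini-Hochberg). SE were derived from F, and 95% intervals used 6 residual and 2.68 prior degrees of freedom. Mouse was a term because the study compared both eyes of each mouse. The titles number treated and control eyes from 1 to 7 without naming the animal. Eyes of the same number were taken as the same mouse. Deviations of both eyes from their group means correlated at 0.03, 0.07, 0.09, -0.44, 0.41, -0.26 and 0.19 in mice 1 to 7. Single values were tested over all 128 sign patterns of log2 CPM differences (prior count 2), whose smallest p is 0.0156. Levels per kb used the longest principal transcript, so another isoform would move them. Correlations used all orderings of the eyes. Scripts were tested on simulated data. As alternatives, mouse was dropped from the model, and RLE or upper-quartile factors, DESeq2 1.42.0, voom with quality weights (limma 3.58.1), other filters, and fits without each mouse or without mice 3 and 4 were used.

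The 8 genes, the pathway and marker lists and the alternatives were chosen with earlier results of these data known. Named besides the 8 were pathway genes past the threshold or, in a list with none, the highest in CPM, the 3 closest patterns of each gene past the threshold, and per marker list the highest in CPM and any past the threshold. Amplified reads carry no molecular identifiers, so depth covers counting error only. The 8 genes held 162 to 79124 counts per library. Upstream windows were matched by symbol to RefSeq, for 5 of the 8 genes. Ahsp was not used here.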

Additional observations from a re-analysis of the deposited data

Results flagged for a closer look

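Of 27 sets of 7 values examined (the 8 genes in each group and as paired differences, and the 3 pairs), 2 held a value far from the other 6. Chance alone gives about 1 in 20 for separate sets. These sets share values, and both flagged values came from the same library. They are not independent, so 2 of 27 cannot be weighed against that rate. Control 3 was the highest control eye for Hmox1, at 199 CPM, and its gap to the next eye was 0.828 of the whole range. It was also the highest for Blvrb, at 82.3 CPM, with a gap of 0.670 of the range. The same library held the most vector transcript of the control eyes, 1163 CPM.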

How the results depend on the processing

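Hmox1 and Blvrb passed in 15 of 15 alternatives, with log2 fold changes of 4.00 to 5.04 and 3.09 to 3.80 and adjusted p of at most 0.0383. Of the 8 genes, 4 passed with DESeq2, 5 with voom and 2 to 4 with each mouse left out (4 without mouse 4). Without mice 3 and 4 only 2 of the 8 passed, and neither Blvra nor Slc48a1 was among them. Blvra passed with DESeq2 (0.61), voom (0.76) and without mouse 4 (0.52 to 0.70 over the mice left out), Slc48a1 in the same settings (0.53, 0.63, and 0.42 to 0.64), and Alad with voom (0.58). Alas1, Fech and Hmox2 passed in none. Without the replicate block for mouse, Hmox1 was 4.02 and Blvrb 3.36, and no call among the 8 changed.

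Of the other pathway genes, 8 passed with DESeq2 (7 higher, 1 lower), 13 with voom (12 higher, 1 lower) and 1 to 9 with each mouse left out (1 without mouse 1 or 7, 2 without mouse 3 or 5, 9 without mouse 4, of which Ppox, Por and Hebp2 were lower). Ppox was the lower gene with DESeq2 and voom. Over all genes the count of 559 became 1100 (877 higher, 223 lower; 547 shared) without the replicate block, 1943 with DESeq2, 2590 with voom, 347 with no filter and 111 to 2050 with each mouse left out (143 without mouse 1, 194 without 3, 2050 without 4, 155 without 5, 240.0 without 6, 111 without 7).

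Without mice 3 and 4 the pair differences were 5.10 for Hmox1 minus Hmox2 and 3.16 for Blvrb minus Blvra, each with an adjusted p of 0.0938, since 5 mice cannot go below 0.0625 before adjustment. Fech minus Alas1, which did not pass in any setting, changed sign without mice 3 and 4 (-0.048) and without mouse 1 or mouse 4, and ranged from -0.013 to 0.10 with each mouse left out. In alternatives chosen after seeing the data, the relations of Hmox1, Blvrb and Slc48a1 to NFE2L2 in Nrf2 eyes passed by Pearson's r with TMM scaling and on leaving out each mouse (r from 0.885 to 0.996), and that of Hmox1 in control eyes in 4 of 7 (r from 0.743 to 0.931). The causes of these changes were not tested.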

Other observations

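Flvcr1, the heme exporter, set apart the libraries that were otherwise closest to each other. Nrf2 4 was the highest of all 14 eyes for Flvcr1, at 48.2 CPM (1181 counts), although it held the least vector transcript of the Nrf2 eyes, and control 3 stood at 17.2 CPM (570.0 counts). The difference of 1.48 (log2) ranked 28th of 12025 genes between these libraries, of which 73 (0.607%) differed by more than 1. Pgrmc1, Bach1 and Abcc3 differed between them by 0.05, 0.18 and -0.12. This gene was singled out after its values were seen.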
